A study of Mus musculus with 12 samples.

Results

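The genes described here encode the enzymes of glycolysis, of the pentose phosphate pathway and of the tricarboxylic acid (TCA) cycle, with a few of their regulators. They were chosen as 44 listed symbols, with earlier results of these data known. All 44 were found among the 21851 gene rows of each library. They comprise 17 genes of glycolysis and lactate production, 6 regulators and pyruvate dehydrogenase genes, 7 genes of the pentose phosphate pathway and 14 genes of the TCA cycle and of the related isocitrate dehydrogenases. Of these, 43 averaged 1 FPKM or more across the 12 libraries and were tested. The exception was Aldoc, a brain-type aldolase, at a mean of 0.673 FPKM. FPKM is the number of sequenced fragments scaled by transcript length and library total.

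Glycolysis splits glucose into pyruvate in the cytosol, and lactate dehydrogenase turns pyruvate into lactate. The pentose phosphate pathway branches off glucose phosphate and yields NADPH, which feeds the oxidative burst, and ribose for nucleotides. Pyruvate dehydrogenase passes carbon from pyruvate to the TCA cycle in the mitochondrion. Macrophages and neutrophils exposed to lipopolysaccharide (LPS), a component of bacterial outer membranes, are known for increased glycolysis, in which the transcription factor Hif1a takes part.

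Peritoneal lavage cells came from C57BL/6J mice. There were 4 groups of 3 libraries, namely lactoferrin knockout mice injected with LPS (KO LPS), wild-type mice injected with LPS (WT LPS), knockout mice injected with PBS (KO PBS) and wild-type mice injected with PBS (WT PBS). All injections were intraperitoneal. The titles of the knockout libraries name wild type, while their codes, descriptions and genotype labels name the lactoferrin knockout, and the grouping follows those. The knockout allele, the ages of the mice, the LPS dose and the interval before lavage were not given in the sources used here. Nothing in the labels says that the 3 libraries of a group came from separate mice, so the p-values measure the spread between these libraries, which may be technical. The lavage was not sorted, so each value is from a mixture of cells, and fewer cells of a type and less RNA per cell cannot be told apart.

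Ltf, the targeted gene (chr9:111019271-111042767, plus strand, GRCm38), was listed at 0.117, 0.0832 and 0.0699 FPKM in KO LPS and at 0.176, 1.33 and 0.275 FPKM in WT LPS. It was at 0.183, 0.258 and 0.213 FPKM in KO PBS and at 1.89, 1.23 and 1.16 FPKM in WT PBS. Knockout and wild-type libraries did not overlap under either injection, and at these levels Ltf was not tested.

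Library totals lay between 343874 and 388129 FPKM, and 13921 to 14574 genes were above 0. WT PBS replicate 3 stood apart: its rank correlation with the other WT PBS libraries over the tested genes was 0.949 and 0.934, and every other pair within a group reached 0.973 or more. Changes in wild type that it moved by over 1.5 times, or across the threshold, are given without it as well, except uncalled ones below 0.25 in size in both fits. The summed level of 7 macrophage markers was 435 to 572 FPKM in KO LPS and 408 to 565 in WT LPS, against 834 to 1200 in KO PBS and 762 to 1320 in WT PBS. The sum of 7 neutrophil markers was 710 to 2660 FPKM in KO LPS, 153 to 278 in WT LPS, 1200 to 3030 in KO PBS and 1950 to 3260 in WT PBS. The sum of 5 B cell markers was 138 to 239 FPKM in KO LPS and 228 to 327 in WT LPS, against 631 to 868 in KO PBS and 500 to 1070 in WT PBS. The sum of 4 monocyte markers was 56.4 to 208 FPKM in KO LPS and 46.0 to 56.7 in WT LPS, against 250 to 367 in KO PBS and 226 to 666 in WT PBS. That of 5 T cell markers was 6.57 to 13.9 FPKM in KO LPS and 11.3 to 12.9 in WT LPS, against 13.6 to 19.5 in KO PBS and 29.4 to 40.7 in WT PBS. After LPS 6 macrophage, 2 neutrophil, 2 monocyte, 4 B cell and 1 T cell markers were called lower in the knockout. In wild type it was 5 macrophage, 6 neutrophil, 4 monocyte, 4 B cell and 5 T cell markers, and none of these lists had a marker called higher in either genotype. Other lists differed. Cd209a of the dendritic list and Pf4 of the platelet list were called higher in the knockout, at log2 fold changes of 0.82 ± 0.27 and 0.71 ± 0.20 (SE). Neither was called in wild type. Of the natural killer list 1 marker was called lower in the knockout and 2 in wild type, and no mast cell marker was called. The eosinophil marker Epx was at 0 in every library. The part of this change in cell markers in the results that follow was not tested.

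In the fit with all 12 libraries LPS changed about as large a share of these genes as of all genes, in both directions. Pfkfb3 and Hk2 rose most, and Idh1 and Pfkfb4 fell most. A gene was called changed at an adjusted p under 0.05 (limma, Benjamini-Hochberg over 9841 genes). In the knockout 21 of the 43 genes were called, 48.8%, where 53.2% of all tested genes were called. They comprised 12 higher, where 19.9% of all genes were called higher, and 9 lower, where 33.3% were called lower. With a log2 change of at least 1 in size there were 5 higher and 2 lower in the knockout, where 4.83% and 10.5% of all genes were, and 4 higher and 5 lower in wild type, where 7.01% and 13.8% were. The number called in the knockout was 13 without KO LPS replicate 2 and 13 without KO PBS replicate 3. Among all 9841 genes 4312 and 4451 were called in those fits, in place of 5235. The number among the 43 was also 13 without KO LPS replicate 1 and WT LPS replicate 2 together, where 4413 of all genes were called. Those libraries had the highest sums of erythroid markers, 1890 and 2230 FPKM, a choice made after seeing the data. In these fits the share called was smaller among the 43 than among all genes. Without WT PBS replicate 3 the number among the 43 was 27, the added genes being Pfkm, Ldhb, Pdk1, Cs, Ogdh and Dlst. There 5752 of all genes were called. In wild type 26 of 43 were called, 60.5%, against 62.2% of all genes, 13 of them higher and 13 lower, where 24.8% and 37.4% of all genes were called higher and lower. LPS and PBS libraries did not overlap for 14 higher and 14 lower genes of the 43 in the knockout, where 24.6% and 41.3% of all genes did not overlap in those directions. In wild type this held for 13 and 13 genes, where 27.2% and 38.9% of all genes did so. The median log2 fold change over the 43 was 0.05 in the knockout and 0.04 in wild type, and over all tested genes it was −0.12 and −0.11. These splits depended on the scaling: with median-of-ratios scaling the calls among the 43 became 18 higher and 6 lower in the knockout and 18 higher and 9 lower in wild type. Calls of a fall were lost for Pdha1 (−0.08), Pgd (−0.41) and Idh2 (−0.64) in the knockout. In wild type they were lost for Hk3 (−0.41), Aldoa (−0.41), Ogdh (−0.07) and Fh1 (−0.10). Calls of a rise were gained for Pfkl, Pdk1, Pdhb, Rpe, Suclg2 and Mdh2 in the knockout. In wild type they were gained for Pfkm, Pgam1, Pkm, Dlst and Sucla2. Among all genes that scaling gave 2933 higher and 2421 lower in the knockout, in place of 1958 and 3277. In wild type it gave 3326 higher and 2877 lower, in place of 2443 and 3680. That scaling raised the median log2 fold change of all genes by 0.16 in each genotype. Every called gene among the 43 kept its sign under that scaling and under upper-quartile scaling.

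**Figure D1:**
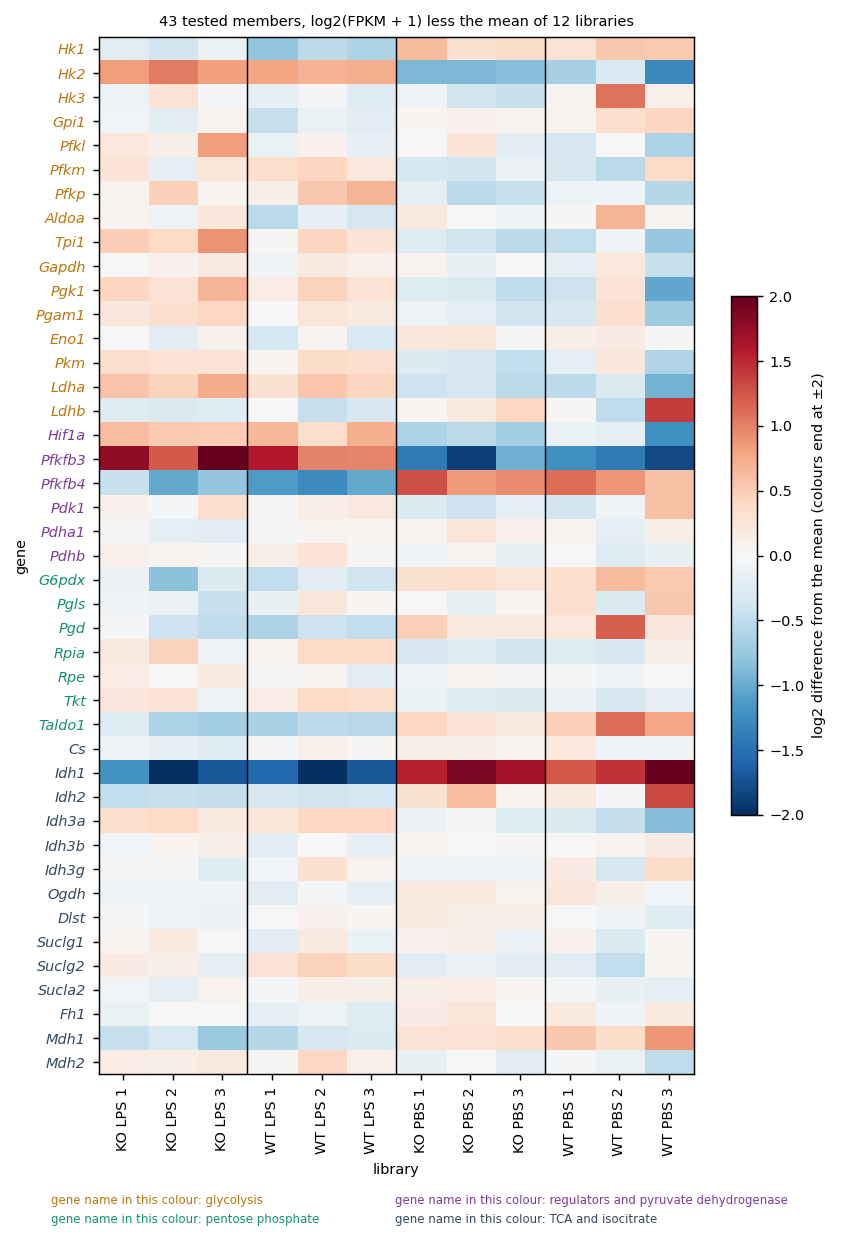
Level of each of the 43 tested genes (rows, grouped by pathway) in each of the 12 libraries (columns, in the order KO LPS, WT LPS, KO PBS, WT PBS), as log2(FPKM + 1) less the gene's mean over the 12 libraries. Red is above and blue below the mean, with colours ending at 2 in size. Pfkfb3 and Hk2 are red in all 6 LPS libraries, Idh1 and Pfkfb4 are blue in them, and WT PBS replicate 3 differs from its group for several genes.

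The same 18 genes were called in the same direction in both genotypes, which is 41.9% of the 43, 85.7% of their calls in the knockout and 69.2% of those in wild type. Over all tested genes the same held for 46.9%, which is 88.3% of the calls in the knockout and 75.5% of those in wild type. Higher in both were Hk2, Pfkp, Tpi1, Pgk1, Ldha, Hif1a, Pfkfb3, Rpia, Tkt and Idh3a. Lower in both were Hk1, Pfkfb4, G6pdx, Pgd, Taldo1, Idh1, Idh2 and Mdh1. None was called in opposite directions, as were only 8 of all 9841 genes, 0.0813%. A further 3 were called in the knockout alone, 8 in wild type alone and 14 in neither. The 3 and the 8 are the calls that the 85.7% and 69.2% above leave, beside 88.3% and 75.5% over all genes. The share of all genes called in neither was not counted. The difference between genotypes in the response, tested as an interaction, was not called for any of the 43.

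**Figure D2:**
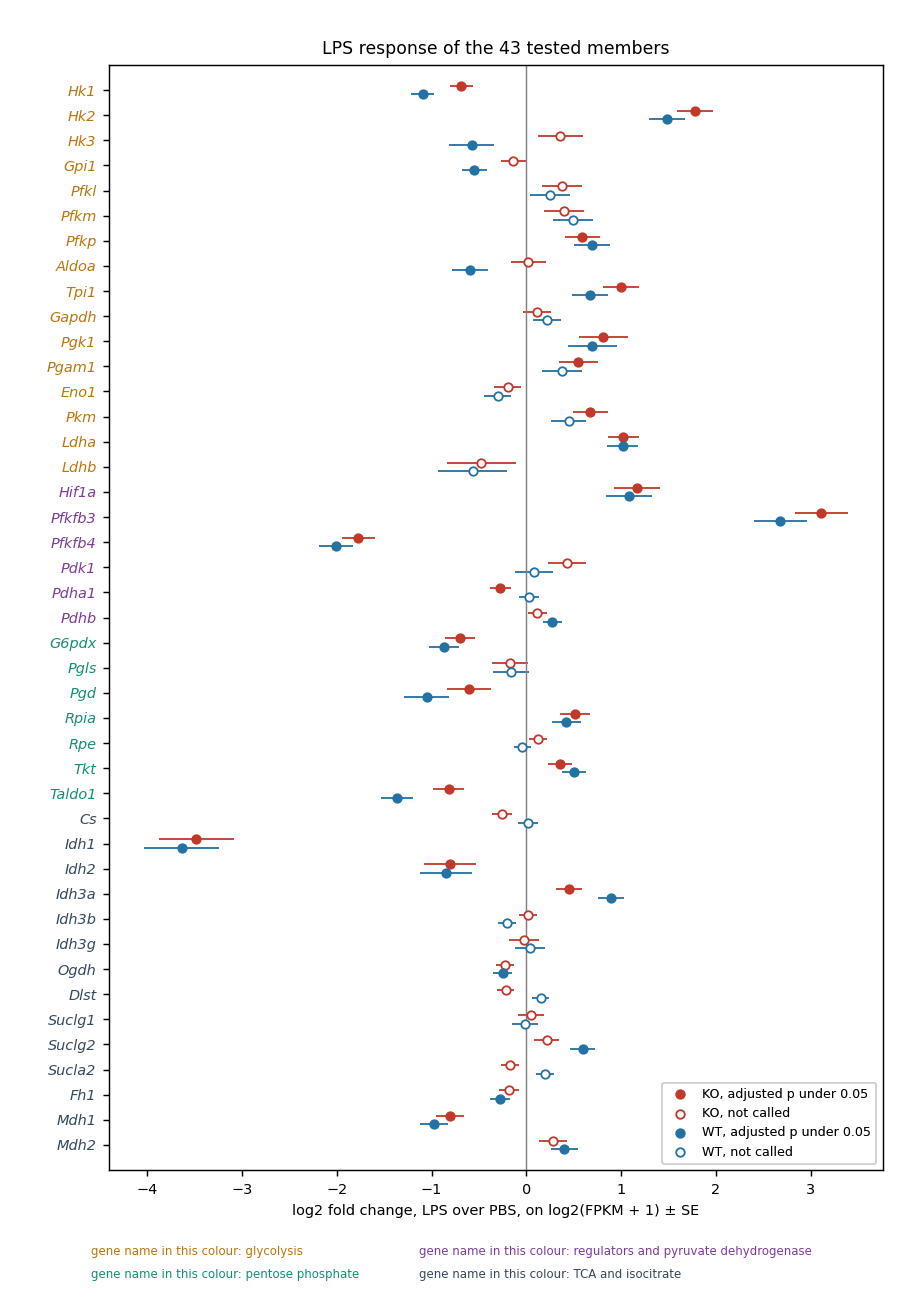
Log2 fold change, LPS over PBS, with its standard error (x axis, log2(FPKM + 1) scale) for each of the 43 tested genes, in the knockout (red) and in wild type (blue). Filled points have an adjusted p under 0.05. Most pairs of points lie on the same side of 0, from Idh1 at −3.48 and −3.63 to Pfkfb3 at 3.11 and 2.68.

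Of the regulators, Pfkfb3 had the largest rise of all 43 genes in both genotypes, and its relative Pfkfb4 fell. Both encode enzymes that make and degrade the sugar bisphosphate that activates phosphofructokinase, and Pfkfb3 is the form that favours its synthesis. Pfkfb3 (chr2:11471433-11554077, minus strand) was at 153, 104 and 191 FPKM in KO LPS, against 15.9, 11.4 and 22.1 FPKM in KO PBS. The wild-type values were 136, 88.7 and 87.3 FPKM with LPS, against 18.1, 15.8 and 11.8 FPKM with PBS. The lowest LPS library was far above the highest PBS library in each genotype. The ratio of mean FPKM was 9.07 in the knockout and 6.81 in wild type. The log2 fold change was 3.11 ± 0.28 in the knockout (SE, adjusted p = 8.54e-06) and 2.68 ± 0.28 in wild type (adjusted p = 1.63e-05), and 2.52 ± 0.30 in wild type without WT PBS replicate 3.

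Pfkfb4 (chr9:108991778-109032228, plus strand) was at 2.12, 1.10 and 1.49 FPKM in KO LPS, against 9.39, 6.67 and 7.17 FPKM in KO PBS. Wild-type levels were 0.934, 0.771 and 1.09 FPKM with LPS, against 8.27, 6.82 and 5.41 FPKM with PBS. The groups did not overlap in either genotype. It fell by 1.77 ± 0.18 on the log2 scale in the knockout (adjusted p = 1.71e-05) and by 2.01 ± 0.18 in wild type (adjusted p = 6.03e-06). Of the summed level of the pair, Pfkfb3 made up 98.9 ± 0.297% in KO LPS and 99.1 ± 0.278% in WT LPS (SD, n = 3 each), against 67.2 ± 7.26% in KO PBS and 68.7, 69.9 and 68.6% in the WT PBS libraries.

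Hif1a, the oxygen-regulated transcription factor that drives many genes of glycolysis (chr12:73901375-73947530, plus strand), was at 126, 118 and 117 FPKM in KO LPS, against 53.2, 56.0 and 50.1 FPKM in KO PBS. Among wild-type libraries it was at 130.3, 105.1 and 134 FPKM with LPS, against 74.7, 72.8 and 34.5 FPKM with PBS. LPS and PBS libraries did not overlap, and WT PBS replicate 3 was the lowest of all 12. Its transcript rose by 1.17 ± 0.24 on the log2 scale in the knockout (adjusted p = 0.00181) and by 1.08 ± 0.24 in wild type (adjusted p = 0.00218), and by 0.72 ± 0.12 in wild type without that library.

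The rest of this list moved less. Pdk1, a kinase that switches pyruvate dehydrogenase off and a known Hif1a target, was at 4.91 to 6.58 FPKM in KO LPS, 5.15 to 5.96 in WT LPS, 3.53 to 4.24 in KO PBS and 3.67 to 7.99 in WT PBS, where replicate 3 was the highest. It was not called in either genotype, at 0.43 ± 0.20 in the knockout and 0.08 ± 0.20 in wild type. Without that library it was called higher in both, at 0.43 ± 0.12 (adjusted p = 0.00913) and 0.35 ± 0.13 (adjusted p = 0.0401). Pdha1 and Pdhb encode the subunits of the first enzyme of the pyruvate dehydrogenase complex. Pdha1 was called lower in the knockout at −0.27 ± 0.11, a call lost on leaving out any of 9 of the 12 libraries, and was at 0.03 ± 0.11 in wild type. Pdhb was called higher in wild type at 0.27 ± 0.10, lost on leaving out any of 5 libraries including WT PBS replicate 3 (0.27 ± 0.11, adjusted p = 0.0599), and was at 0.12 ± 0.10 in the knockout. In all, 2 of the 6 genes of this list were called higher and 2 lower in the knockout, and 3 higher and 1 lower in wild type. The shares over all tested genes were 19.9% higher and 33.3% lower in the knockout, and 24.8% and 37.4% in wild type.

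**Figure D3:**
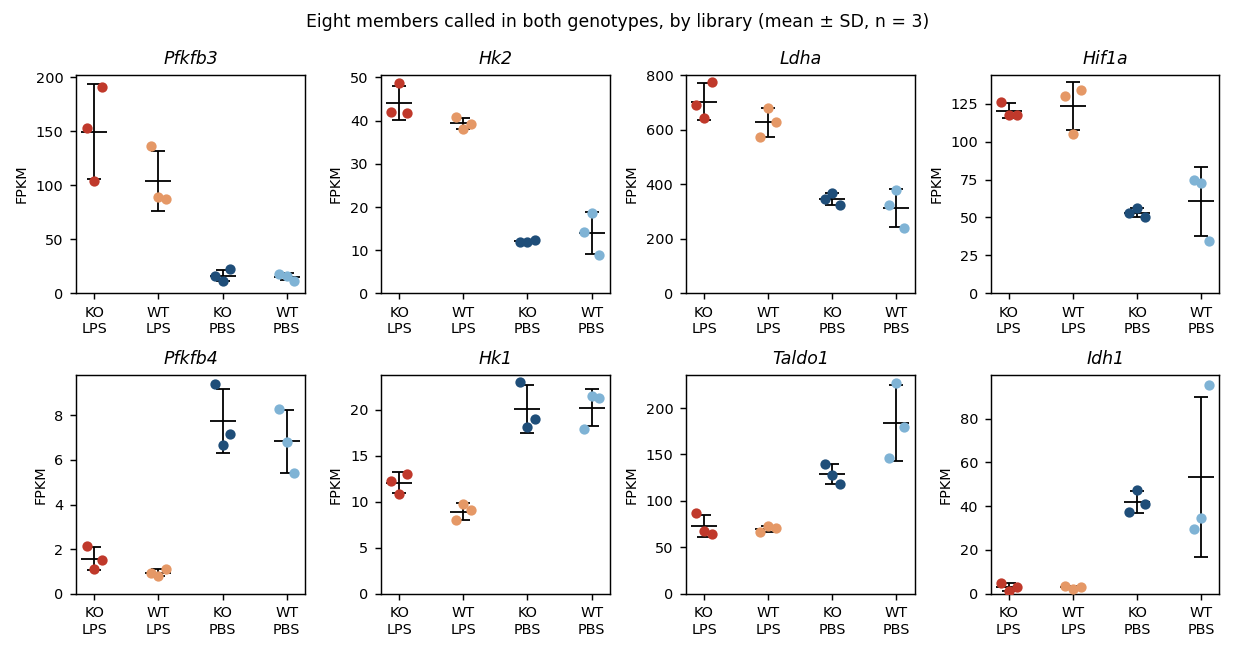
FPKM in each library (points) with the group mean and SD (bars, n = 3) for 8 genes called in both genotypes, with KO LPS, WT LPS, KO PBS and WT PBS from left to right. The LPS and PBS points of a genotype do not overlap for any of the 8. Pfkfb3 spans 87.3 to 191 FPKM in the LPS libraries and 11.4 to 22.1 FPKM in the PBS libraries.

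Because several genes of glycolysis are known targets of Hif1a, the sequence just before their annotated transcript starts was read for ACGTG, the core of the element that Hif1 binds. The letters CACGTG, the element known for Myc and for Mlxipl, hold ACGTG on each strand, so the motifs overlap there. The windows are the 250 bases before each RefSeq transcript start (GRCm38.p6), searched on both strands. Of the 43 listed genes with a window, 14 (32.6%) held ACGTG, as did 2027 of 7730 tested genes (26.2%) and 5444 of 32851 windows of all genes (16.6%). Among the genes called higher in both genotypes it was 5 of the 9 with a window, namely Hk2, Pgk1, Ldha, Hif1a and Pfkfb3, and not Pfkp, Tpi1, Rpia or Tkt. Among those called lower in both it was 1 of 8, Mdh1. These shares describe letters in a window, with no test. The windows of those 5 genes are printed to show where the letters lie, and that of Pfkfb4 as an example with none. Where a gene has several windows, the one with most matches is printed. Those of Hif1a, Pfkfb3 and Ldha lie within the annotated span of the gene, before an inner transcript start. For Hif1a and Ldha the bases just after that start were not found in a GENCODE transcript of the gene. Each runs 5′ to 3′ on the gene's strand, with ACGTG and its reverse complement CACGT in capitals, and bases that an annotated transcript of the gene reads as exon were left off for Pfkfb3 and Pfkfb4.
Hif1a, chr12:73907617-73907866, plus strand: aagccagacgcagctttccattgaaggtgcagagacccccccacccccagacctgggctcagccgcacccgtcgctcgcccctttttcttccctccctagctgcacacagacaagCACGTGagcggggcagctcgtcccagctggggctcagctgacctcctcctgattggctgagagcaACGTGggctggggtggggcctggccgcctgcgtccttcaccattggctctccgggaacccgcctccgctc
Pfkfb3, chr2:11502102-11502340, minus strand: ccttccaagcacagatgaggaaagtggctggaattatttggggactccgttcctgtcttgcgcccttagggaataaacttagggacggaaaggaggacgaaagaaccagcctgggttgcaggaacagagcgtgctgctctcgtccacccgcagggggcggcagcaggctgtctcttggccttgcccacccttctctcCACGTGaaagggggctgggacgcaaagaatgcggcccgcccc
Hk2, chr6:82774455-82774704, minus strand: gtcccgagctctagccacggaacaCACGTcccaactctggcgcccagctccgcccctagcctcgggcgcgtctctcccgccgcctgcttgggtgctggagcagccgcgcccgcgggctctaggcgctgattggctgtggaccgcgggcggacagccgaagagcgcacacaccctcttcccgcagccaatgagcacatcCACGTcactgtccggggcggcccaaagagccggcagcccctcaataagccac
Pgk1, chrX:106186850-106187099, plus strand: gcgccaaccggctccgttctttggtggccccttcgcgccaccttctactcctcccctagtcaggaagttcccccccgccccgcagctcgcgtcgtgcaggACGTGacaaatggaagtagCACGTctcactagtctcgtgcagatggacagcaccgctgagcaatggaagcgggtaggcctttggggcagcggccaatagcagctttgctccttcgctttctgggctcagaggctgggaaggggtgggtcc
Ldha, chr7:46845554-46845803, plus strand: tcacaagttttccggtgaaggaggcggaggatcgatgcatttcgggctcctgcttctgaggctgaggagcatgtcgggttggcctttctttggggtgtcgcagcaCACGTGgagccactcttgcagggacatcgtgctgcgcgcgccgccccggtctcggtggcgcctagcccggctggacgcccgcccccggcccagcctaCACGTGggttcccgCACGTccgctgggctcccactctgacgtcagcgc
Pfkfb4, chr9:108991652-108991777, plus strand: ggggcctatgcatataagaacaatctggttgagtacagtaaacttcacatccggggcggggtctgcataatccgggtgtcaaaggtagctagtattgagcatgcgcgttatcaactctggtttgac
Ldha, with CACGTG at 2 places and a further CACGT, had the most of these.

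Among the 16 tested genes of glycolysis, 7 were called higher and 1 lower in the knockout, and 5 higher and 4 lower in wild type, with median log2 fold changes of 0.39 and 0.31. Of all tested genes 19.9% were called higher and 33.3% lower in the knockout, and 24.8% and 37.4% in wild type. The hexokinases, which trap glucose in the cell, changed in opposite directions. Hk2 (chr6:82725025-82774454, minus strand) was at 42.0, 48.7 and 41.7 FPKM in KO LPS, against 11.9, 11.9 and 12.4 FPKM in KO PBS. In wild type it was at 40.8, 38.1 and 39.2 FPKM with LPS, against 14.3, 18.6 and 8.92 FPKM with PBS. The groups were far apart, and WT PBS replicate 3 was the lowest library. Hk2 rose by 1.78 ± 0.19 in the knockout (adjusted p = 2.55e-05) and by 1.49 ± 0.19 in wild type (adjusted p = 5.85e-05), and by 1.22 ± 0.12 in wild type without that library.

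Hk1 (chr10:62268855-62379908, minus strand), the form found in most tissues, was at 12.3, 10.9 and 13.1 FPKM in KO LPS, against 23.1, 18.2 and 19.0 FPKM in KO PBS. The wild-type values were 7.99, 9.76 and 9.07 FPKM with LPS, against 17.9, 21.5 and 21.3 FPKM with PBS. It fell by 0.69 ± 0.12 in the knockout (adjusted p = 0.000687) and by 1.09 ± 0.12 in wild type (adjusted p = 2.26e-05), with no overlap in either. Hk3, the hexokinase typical of myeloid cells, was at 10.0, 13.5 and 10.5 FPKM in KO LPS, 9.37, 10.6 and 8.92 in WT LPS, 10.1, 8.02 and 7.67 in KO PBS and 11.3, 24.2 and 11.8 in WT PBS. Its call in wild type, at −0.58 ± 0.23 (adjusted p = 0.0498), was lost on leaving out any of 10 libraries, and without WT PBS replicate 2 the value was −0.24. In the knockout it was at 0.36 ± 0.23, and called without that library at 0.36 ± 0.13 (adjusted p = 0.036). That library also had the highest monocyte marker sum, 666 FPKM, where the others of its group had 372 and 226. Each of the 4 markers was highest there within the group, most of all Chil3, at 393 FPKM against 162 and 83.1. The part of these markers in the Hk3 values was not tested. Of the summed hexokinase level, Hk2 made up 65.3 ± 1.38% in KO LPS and 67.9 ± 2.53% in WT LPS (SD, n = 3 each), against 29.8 ± 2.95% in KO PBS and 32.9, 28.9 and 21.3% in the WT PBS libraries.

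**Figure D4:**
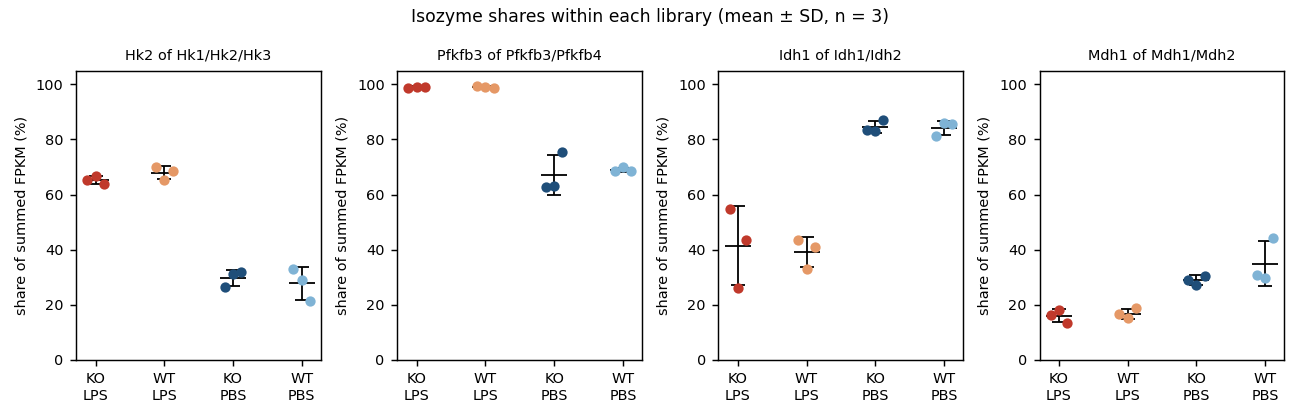
Share of Hk2 among the hexokinases Hk1 to Hk3, of Pfkfb3 among Pfkfb3 and Pfkfb4, of Idh1 among Idh1 and Idh2, and of Mdh1 among Mdh1 and Mdh2, in percent of their summed FPKM, per library (points) with mean and SD (bars, n = 3). The groups run KO LPS, WT LPS, KO PBS, WT PBS from left to right. For all 4 shares the 6 LPS libraries lie apart from the 6 PBS libraries.

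The middle steps of glycolysis did not move as a block. Phosphofructokinase commits sugar to the pathway. Of its genes, Pfkp was called higher at 0.59 ± 0.19 in the knockout, lost without KO LPS replicate 2 (0.45), KO PBS replicate 2 (0.52) or KO PBS replicate 3 (0.56), and at 0.69 ± 0.19 in wild type. Pfkl, the most abundant of them at a mean of 57.8 FPKM, and Pfkm, at 1.38 FPKM, were not called, with values of 0.38 ± 0.21 and 0.40 ± 0.21 in the knockout and 0.25 ± 0.21 and 0.50 ± 0.21 in wild type. Without WT PBS replicate 3 Pfkm was called higher at 0.40 ± 0.14 in the knockout (adjusted p = 0.0296) and 0.76 ± 0.16 in wild type (adjusted p = 0.0017), and Pfkl was at 0.09 ± 0.21 in wild type. Gpi1, which isomerises glucose phosphate, and the main aldolase gene Aldoa were called lower in wild type, at −0.55 ± 0.13 and −0.59 ± 0.19, and were at −0.14 ± 0.13 and 0.02 ± 0.19 in the knockout. Aldoa was at 153, 136 and 172 FPKM in KO LPS and 99.95, 131 and 115 in WT LPS, against 169, 147 and 138 in KO PBS and 149, 235 and 149.6 in WT PBS, where the groups overlapped in the knockout only. Gpi1 was at 94.4, 83.7 and 103 FPKM in KO LPS and 71.4, 90.03 and 83.9 in WT LPS, against 100.7, 104 and 103 in KO PBS and 103, 125 and 133 in WT PBS. The call of Aldoa was lost without WT LPS replicate 1 (−0.50) or WT PBS replicate 2 (−0.38). It was also lost with median-of-ratios scaling (−0.41) and with only the groups compared in the fit (−0.59).

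Tpi1, which interconverts the 3-carbon sugars (chr6:124810586-124814296, minus strand), was at 178, 167 and 236 FPKM in KO LPS, against 105.2, 94.8 and 86.3 FPKM in KO PBS. Wild-type levels were 128, 170 and 151 FPKM with LPS, against 89.5, 120.2 and 74.1 FPKM with PBS. The groups did not overlap, and it rose by 1.0 ± 0.19 in the knockout (adjusted p = 0.00122) and by 0.67 ± 0.19 in wild type (adjusted p = 0.00956). In wild type the value was 0.51 ± 0.19 without WT PBS replicate 3.

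Pgk1, which makes ATP in glycolysis, was at 237, 214 and 281 FPKM in KO LPS, against 146, 144 and 123 FPKM in KO PBS, with no overlap. Among wild-type libraries it was at 195, 239 and 214 FPKM with LPS, against 131, 210 and 84.5 FPKM with PBS, where WT PBS replicate 2 lay within the LPS range. It was called higher at 0.81 ± 0.26 in the knockout and at 0.70 ± 0.26 in wild type. The call in the knockout was lost without KO LPS replicate 3 (0.71) or KO PBS replicate 3 (0.73). That in wild type was lost without WT LPS replicate 2 (0.62) or 3 (0.70) or WT PBS replicate 1 (0.69) or 3 (0.38).

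The last steps gave the most abundant transcripts of the set. Ldha, which turns pyruvate into lactate (chr7:46841475-46855627, plus strand), had the highest mean of all, 498 FPKM. It was at 690.1, 643 and 776 FPKM in KO LPS, against 347, 367 and 323 FPKM in KO PBS. In wild type it was at 574, 681 and 629 FPKM with LPS, against 324, 379 and 241 FPKM with PBS. No PBS library reached the lowest LPS library. Ldha rose by 1.02 ± 0.16 in both genotypes (adjusted p = 0.000376 in the knockout and 0.000264 in wild type), a ratio of mean FPKM of 2.04 and 2.0, and by 0.84 ± 0.13 in wild type without WT PBS replicate 3.

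Pkm, whose product makes pyruvate, was called higher in the knockout at 0.67 ± 0.18 (adjusted p = 0.00922) and was at 0.45 ± 0.18 in wild type (adjusted p = 0.0519). It was at 408, 387 and 384 FPKM in KO LPS, against 262, 251 and 226 FPKM in KO PBS, with no overlap. The wild-type values were 332, 410.2 and 404 FPKM with LPS, against 278, 374 and 209 FPKM with PBS, where the groups overlapped. The wild-type value was 0.24 ± 0.15 without WT PBS replicate 3, and it was called at 0.66 ± 0.15 without WT PBS replicate 2 (adjusted p = 0.00355) and at 0.55 ± 0.20 without WT LPS replicate 1 (adjusted p = 0.0421). Pgam1, the mutase before enolase, was called in the knockout at 0.55 ± 0.21, a call lost on leaving out any of 10 libraries, and was at 0.37 ± 0.21 in wild type. There it was at 0.14 ± 0.17 without WT PBS replicate 3 and called at 0.65 ± 0.15 without WT PBS replicate 2 (adjusted p = 0.00328). Eno1, second in level at a mean of 346 FPKM, was not called in either genotype, at −0.19 ± 0.14 in the knockout and −0.30 ± 0.14 in wild type, and it was called in wild type at −0.43 ± 0.14 without WT LPS replicate 2 (adjusted p = 0.0286). It was at 340.4, 294 and 365 FPKM in KO LPS and 269.8, 355 and 278 in WT LPS, against 404, 408 and 333 in KO PBS and 374, 385 and 348 in WT PBS, and the groups overlapped in both genotypes.

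Ldhb, the lactate dehydrogenase of heart and lymphocytes, was low and uneven. It was at 1.32 to 1.39 FPKM in KO LPS and 1.05 to 1.81 in WT LPS, against 1.91 to 2.76 in KO PBS and 1.87, 0.983 and 6.48 in the WT PBS libraries. It was not called, at −0.47 ± 0.36 in the knockout and −0.57 ± 0.36 in wild type. Without WT PBS replicate 3 it was called lower in the knockout at −0.47 ± 0.16 (adjusted p = 0.0254) and was at −0.02 ± 0.18 in wild type, and without WT PBS replicate 2 it was called lower in wild type at −0.97 ± 0.31 (adjusted p = 0.0194). Gapdh was listed at no more than 4.26 FPKM in any library, far below its neighbours in the pathway, and was not called, though it was at 0.40 ± 0.12 in wild type without WT PBS replicate 2 (adjusted p = 0.0158). It has many near-identical copies in the mouse genome, and how reads shared with them were treated is not stated in the labels, so its value is uncertain.

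In the pentose phosphate pathway the NADPH-making genes G6pdx and Pgd and the gene Taldo1 fell, and Tkt and Rpia rose, so that 2 of 7 were called higher and 3 lower in each genotype. Over all tested genes 19.9% were called higher and 33.3% lower in the knockout, and 24.8% and 37.4% in wild type. G6pdx, the first and rate-limiting enzyme, was at 28.8, 17.4 and 25.8 FPKM in KO LPS, against 39.2, 39.6 and 37.4 FPKM in KO PBS. Wild-type levels were 22.01, 26.8 and 23.6 FPKM with LPS, against 39.5, 49.5 and 45.7 FPKM with PBS. The groups did not overlap, and it fell by 0.70 ± 0.16 in the knockout (adjusted p = 0.00387) and by 0.87 ± 0.16 in wild type (adjusted p = 0.000773).

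Pgd, the other enzyme that makes NADPH in this pathway (chr4:149149991-149166771, minus strand), was at 67.8, 52.0 and 48.8 FPKM in KO LPS, against 97.2, 79.4 and 79.6 FPKM in KO PBS. Among wild-type libraries it was at 45.2, 52.0 and 49.3 FPKM with LPS, against 81.1, 161 and 81.6 FPKM with PBS. The groups did not overlap, and WT PBS replicate 2 was far above the rest of its group. The change was −1.05 ± 0.23 in wild type (adjusted p = 0.00229), and −0.73 without that library. In the knockout it was −0.60 ± 0.23 (adjusted p = 0.0473), a call lost on leaving out any of 8 libraries.

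Taldo1, which links the pentoses back to glycolysis (chr7:141392199-141402968, plus strand), was at 87.1, 67.9 and 64.2 FPKM in KO LPS, against 139.9, 128 and 118 FPKM in KO PBS. In wild type it was at 66.5, 72.4 and 70.7 FPKM with LPS, against 146, 228 and 179 FPKM with PBS. No LPS library reached a PBS library. It fell by 0.82 ± 0.16 in the knockout (adjusted p = 0.00165) and by 1.36 ± 0.16 in wild type (adjusted p = 4.20e-05). Neutrophil marker sums were 2660, 710 and 1920 FPKM in KO LPS, against 3030, 1200 and 1250 FPKM in KO PBS, where the groups overlapped. In wild type they were 153, 246 and 278 FPKM with LPS, against 3260, 2810 and 1950 FPKM with PBS, with no overlap. S100a8 and S100a9 had the highest means of the 7 markers, 714 and 701 FPKM. Cxcr2 (−2.72 ± 0.55) and Mmp9 (−2.42 ± 0.32) were called lower in the knockout with no overlap, and the other markers of this list were not called there. The part of these markers in the result was not tested.

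Tkt and Rpia went the other way. Tkt, the transketolase, was at 95.7, 98.6 and 76.6 FPKM in KO LPS and 90.1, 107 and 104.5 in WT LPS, against 74.2, 68.5 and 67.3 in KO PBS and 75.4, 65.4 and 71.0 in WT PBS, with no overlap. It rose by 0.35 ± 0.12 in the knockout (adjusted p = 0.0295) and by 0.50 ± 0.12 in wild type (adjusted p = 0.00401). Rpia, which isomerises ribose phosphate, was called higher at 0.51 ± 0.15 in the knockout and 0.42 ± 0.15 in wild type, where the groups overlapped. In the knockout Tkt lost its call without KO LPS replicate 1 (0.31) or 2 (0.29) or KO PBS replicate 2 (0.34) or 3 (0.33), and Rpia without KO LPS replicate 2 (0.39) or KO PBS replicate 3 (0.47). In wild type Rpia lost it on leaving out any of 4 libraries, at 0.34 to 0.38. Pgls, the lactonase, was at 18.8 to 24.8 FPKM in KO LPS and 23.4 to 30.4 in WT LPS, against 23.2 to 27.1 in KO PBS and 21.2 to 38.2 in WT PBS, and neither it nor Rpe was called, though Pgls was at −0.40 ± 0.15 in wild type without WT PBS replicate 2 (adjusted p = 0.0395).

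In the TCA list the isocitrate dehydrogenases Idh1 and Idh2 fell and Idh3a rose. Idh1 (chr1:65158616-65186500, minus strand), the cytosolic NADP-dependent form, which makes NADPH outside the mitochondrion, fell furthest of all 43 genes. It was at 4.69, 1.43 and 3.05 FPKM in KO LPS, against 37.2, 47.3 and 41.1 FPKM in KO PBS. The wild-type values were 3.45, 2.07 and 3.02 FPKM with LPS, against 29.5, 34.8 and 95.3 FPKM with PBS. The highest LPS library lay far below the lowest PBS library, and WT PBS replicate 3 was the highest of all. The change was −3.48 ± 0.39 in the knockout (adjusted p = 3.83e-05) and −3.63 ± 0.39 in wild type (adjusted p = 2.13e-05), and −3.12 ± 0.29 in wild type without that library. The ratio of mean FPKM was 0.0730 in the knockout and 0.0535 in wild type. The markers of macrophages, monocytes and other cells that were lower with LPS moved with it, and their part in the result was not tested.

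Idh2, the mitochondrial NADP-dependent form, was at 3.89, 4.04 and 3.95 FPKM in KO LPS, against 7.46, 9.59 and 6.21 FPKM in KO PBS. Wild-type levels were 4.50, 4.23 and 4.39 FPKM with LPS, against 6.85, 5.75 and 16.2 FPKM with PBS. The groups did not overlap. Its change was −0.80 ± 0.27 in the knockout, lost on leaving out any of 5 libraries, and −0.85 ± 0.27 in wild type, which became −0.44 ± 0.14 without WT PBS replicate 3. Idh1 made up 41.5 ± 14.4% of the summed level of the pair in KO LPS and 39.0 ± 5.47% in WT LPS (SD, n = 3 each), against 84.4 ± 2.10% in KO PBS and 81.2, 85.8 and 85.5% in the WT PBS libraries.

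Idh3a, the catalytic subunit of the NAD-dependent enzyme of the cycle itself, rose. It was at 42.1, 43.3 and 37.5 FPKM in KO LPS, against 30.1, 31.9 and 27.2 FPKM in KO PBS, and in wild type at 38.7, 43.5 and 43.8 FPKM with LPS, against 26.6, 23.1 and 17.5 FPKM with PBS. The groups did not overlap. The change was 0.45 ± 0.14 in the knockout (adjusted p = 0.0181), lost without KO LPS replicate 1 (0.43) or 2 (0.41) or KO PBS replicate 3 (0.39), and 0.90 ± 0.14 in wild type (adjusted p = 0.00022). Its partner subunits Idh3b and Idh3g were not called, at 0.02 ± 0.09 and −0.03 ± 0.16 in the knockout and −0.21 ± 0.09 and 0.04 ± 0.16 in wild type. Idh3b was called in wild type without WT LPS replicate 2, at −0.27 ± 0.10 (adjusted p = 0.0432).

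Malate dehydrogenase showed a similar split between its genes. Mdh1, the cytosolic form, was at 31.9, 35.96 and 26.3 FPKM in KO LPS, against 54.3, 54.7 and 55.9 FPKM in KO PBS. Among wild-type libraries it was at 29.7, 35.2 and 36.7 FPKM with LPS, against 65.0, 57.4 and 81.8 FPKM with PBS. It fell by 0.80 ± 0.15 in the knockout (adjusted p = 0.000982) and by 0.98 ± 0.15 in wild type (adjusted p = 0.000187), with no overlap. Mdh2, the mitochondrial form and the most abundant of the list at a mean of 150 FPKM, was called higher in wild type at 0.40 ± 0.15, lost without WT LPS replicate 2 (0.29) or 3 (0.44) or WT PBS replicate 3 (0.26), and was at 0.28 ± 0.15 in the knockout. Its libraries had 165, 162 and 169 FPKM in KO LPS and 151, 197 and 159 in WT LPS, against 133, 147.9 and 128 in KO PBS and 146, 135 and 103 in WT PBS, with no overlap. Mdh1 was 16.0 ± 2.37% of the pair in KO LPS and 16.8 ± 1.82% in WT LPS (SD, n = 3 each), against 28.8 ± 1.75% in KO PBS and 30.8, 29.8 and 44.2% in the WT PBS libraries.

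The other genes of the cycle moved little. Cs, citrate synthase, was at 54.1 to 60.7 FPKM in KO LPS and 62.9 to 69.0 in WT LPS, against 66.1 to 70.4 in KO PBS and 60.2 to 73.8 in WT PBS, and was not called, at −0.26 ± 0.10 in the knockout and 0.02 ± 0.10 in wild type. The knockout value passed without WT PBS replicate 1 (adjusted p = 0.0342) or replicate 3 (adjusted p = 0.0407). Suclg2, a subunit of the GTP-forming succinyl-CoA ligase, was called higher in wild type at 0.59 ± 0.13 and was at 0.22 ± 0.13 in the knockout. Ogdh and Fh1 were called lower in wild type at −0.25 ± 0.10 and −0.28 ± 0.11, calls lost on leaving out any of 9 and any of 5 libraries (Fh1 was at −0.23 ± 0.11 without WT PBS replicate 3), and were at −0.22 ± 0.10 and −0.19 ± 0.11 in the knockout, where Ogdh passed without WT PBS replicate 3 (adjusted p = 0.0388). Over the 14 genes 1 was called higher and 3 lower in the knockout, and 3 higher and 5 lower in wild type. The shares of all tested genes were 19.9% higher and 33.3% lower in the knockout, and 24.8% and 37.4% in wild type.

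No gene of the set was called between knockout and wild type. Under LPS 0 of 43 passed limma's adjusted threshold, where 0% of all genes did, and 5 had an unadjusted p under 0.05, where 7.56% of all genes had. Under PBS 0 of 43 were called, where 0.112% of all genes were, and 5 had an unadjusted p under 0.05, where 9.11% of all genes had. For the difference between genotypes in the LPS response 0 of 43 were called, where 0.0406% of all genes were, and 8 had an unadjusted p under 0.05, where 9.61% of all genes had. Knockout and wild-type libraries did not overlap for 5 higher and 4 lower genes under LPS, where 5.03% and 10.4% of all genes did not, and for 3 higher and 3 lower under PBS, where 6.04% and 7.34% did not. The smallest adjusted p was 0.512 under LPS (Hk1), 0.386 under PBS (Hk3) and 0.436 for the difference in response (Dlst). WT PBS was also the most variable group for these genes. The median coefficient of variation was 9.77% in KO LPS, 10.1% in WT LPS, 8.0% in KO PBS and 20.9% in WT PBS. Replicate 3, the library that stands apart, was farthest from the WT PBS median for 19 of the 43 genes. Replicate 2 was farthest for 17 and replicate 1 for 7. The number called stayed at 0 in these 3 comparisons without WT PBS replicate 3, and without any other 1 library.

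**Figure D5:**
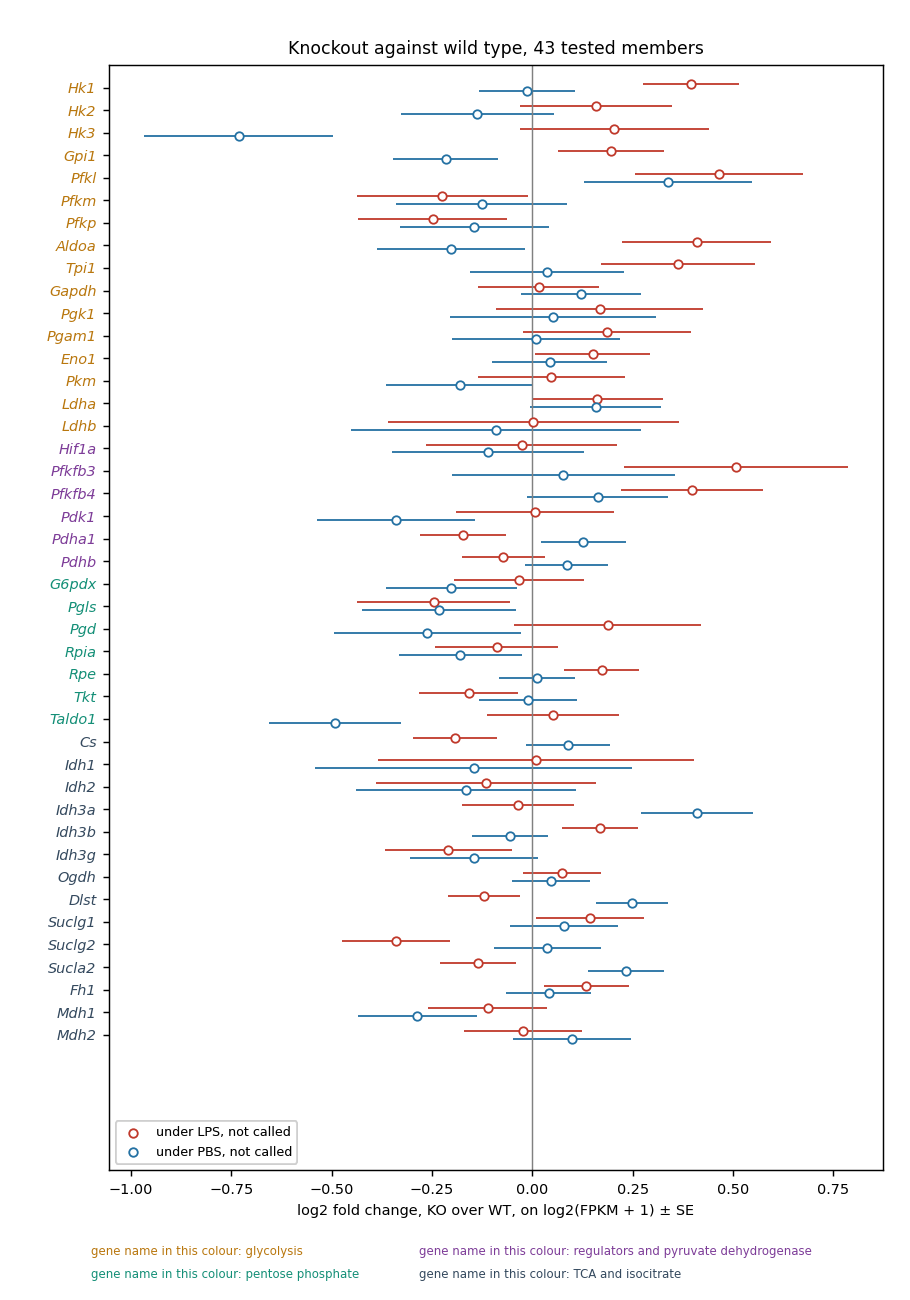
Log2 fold change, knockout over wild type, with its standard error (x axis, log2(FPKM + 1) scale) for each of the 43 tested genes under LPS (red) and under PBS (blue). All points are open because none had an adjusted p under 0.05. Values run from −0.34 to 0.51 under LPS and from −0.73 (Hk3) to 0.41 under PBS.

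The sizes on the log2(FPKM + 1) scale that these data leave room for can be read from the intervals. That scale understates differences of low genes such as Pfkfb4, Pfkm and Ldhb, so their intervals do not bound a ratio of plain FPKM. Pfkfb4 under LPS was at 0.40 with an interval of 0.01 to 0.78, at means of 1.57 FPKM in KO LPS and 0.931 in WT LPS. Under LPS the 95% interval of the log2 difference lay within 1 in size for 42 of the 43 genes, all but Pfkfb3, and within 0.5 for 22. Under PBS it lay within 1 for 41, all but Hk3 and Idh1, and within 0.5 for 19. For the difference in response it lay within 1 for 36 and within 0.5 for 5. Pfkfb3 under LPS was at 0.51 with an interval of −0.10 to 1.12. Hk1 under LPS was at 0.40 with an interval of 0.13 to 0.66 and no overlap of the groups. For Idh1 the interval was −0.86 to 0.87 under LPS, so these data leave room for differences within those bounds. For Hif1a it was −0.55 to 0.50 and for Ldha −0.19 to 0.52.

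Of a wider list of 82 genes of these pathways, 61 were tested. In the knockout 11 were called higher and 18 lower with LPS, 47.5% in all, and in wild type 14 higher and 23 lower, 60.7%, where 53.2% and 62.2% of all tested genes were called. None was called between genotypes or for the difference in response. Slc16a1, a lactate and pyruvate transporter, was at 42.3, 42.4 and 44.9 FPKM in KO LPS and 46.4, 36.8 and 43.5 in WT LPS, against 9.77, 8.48 and 7.94 in KO PBS and 9.65, 10.1 and 5.89 in WT PBS. It rose by 2.19 ± 0.17 in the knockout (adjusted p = 3.07e-06) and by 2.20 ± 0.17 in wild type (adjusted p = 2.32e-06), with no overlap. Myc, a transcription factor that drives growth genes, rose by 1.76 ± 0.20 in the knockout and by 1.53 ± 0.20 in wild type.

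Several genes of glucose sensing and transport fell. Mlxipl, the carbohydrate-response factor ChREBP, was at 1.81, 1.16 and 1.69 FPKM in KO LPS and 1.45, 1.46 and 0.970 in WT LPS, against 15.3, 14.7 and 11.8 in KO PBS and 7.05, 5.88 and 15.2 in WT PBS. It fell, with log2 fold changes of −2.55 ± 0.26 in the knockout (adjusted p = 2.03e-05) and −2.08 ± 0.26 in wild type (adjusted p = 5.35e-05). Txnip, its known target and a brake on glucose uptake, fell by 1.49 ± 0.16 in the knockout and by 1.85 ± 0.16 in wild type. Slc37a2, a sugar phosphate exchanger, fell by 1.40 ± 0.14 in the knockout and by 1.91 ± 0.14 in wild type. Acod1, which diverts the cycle intermediate aconitate to itaconate, was at 538, 488 and 613 FPKM in KO LPS and 618, 584 and 548 in WT LPS, against 249, 296 and 303 in KO PBS and 317, 293 and 114 in WT PBS, and it rose by 0.95 ± 0.30 in the knockout (adjusted p = 0.0209) and by 1.40 ± 0.30 in wild type (adjusted p = 0.00198). Without WT PBS replicate 3 the values in wild type were 0.93 ± 0.13 for Acod1, −1.71 ± 0.16 for Mlxipl and −1.38 ± 0.28 for Epas1. Bnip3, a mitophagy receptor known as a Hif1a target, rose by 1.56 ± 0.24 in the knockout and by 0.93 ± 0.24 in wild type. Pdpr, a regulator of pyruvate dehydrogenase phosphatase, changed by −1.11 ± 0.18 in the knockout and −0.90 ± 0.18 in wild type, and Glud1, glutamate dehydrogenase, by −1.07 ± 0.13 and −1.05 ± 0.13, all called. Egln3, an oxygen sensor that marks Hif proteins for degradation, was called lower in wild type at −2.27 ± 0.29 and was at −0.63 ± 0.29 in the knockout (adjusted p = 0.0929), with a difference in response of 1.65 ± 0.41 that was not called (adjusted p = 0.246). Epas1, the relative of Hif1a, was called lower in wild type at −1.75 ± 0.33 and was at −0.77 ± 0.33 in the knockout (adjusted p = 0.0659).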

How the data were processed

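Peritoneal lavage RNA was sequenced in 12 libraries. The authors deposited 1 table of values per library, with 21878 rows. The unit is not stated in the files and was taken as FPKM from the deposited values, which are not whole numbers, with Cufflinks among the tools. Per the submitters' processing notes, which give no versions here, the tools included TopHat, Cufflinks, HTSeq and DESeq, with the build GRCm38. Read depth is unknown, because whole reads could not be recovered from the FPKM values, so no counting error is given. Rows with a date in place of a symbol (27) were left out, which left 21851.

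The 9841 genes averaging 1 FPKM or more were tested as log2(FPKM + 1) with limma 3.58.1 (statmod 1.5.0, R 4.3.3), with 1 mean per group over all 12 libraries, a trended robust prior variance and 8 residual degrees of freedom. A fold change on this scale understates that of low genes. P-values were adjusted by Benjamini-Hochberg over all tested genes in each contrast, with a threshold of 0.05, and intervals are 95% intervals of the fit. The procedure was tested on simulated data, with independent normal noise for each gene and few changed genes. In these data 53.2% and 62.2% of all genes were called with LPS in the knockout and in wild type. That test therefore does not show how the procedure does here. The members and lists were chosen with earlier results of these data known. The rule gave per-library values to genes called with a log2 change of at least 1, and named up to 5 smaller called genes of highest level, the highest uncalled gene of each pathway and, of the wider list, up to 8 called genes of largest change per contrast. Per-library values of other genes were chosen after they were seen. The alternatives changed the pseudocount, scaling, filter, prior, replicate block, libraries in the fit, and left out each library. Leaving out the pair of libraries richest in erythroid RNA was chosen after seeing the data. Gene positions are from GENCODE vM21 and promoter sequences from RefSeq, GRCm38.p6.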

Additional observations from a re-analysis of the deposited data

Results flagged for a closer look

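Dlst, a subunit of the oxoglutarate dehydrogenase complex (chr12:85110833-85134845, plus strand), was the 1 gene of the set whose libraries moved in opposite directions in the genotypes. It was at 43.6, 42.5 and 41.1 FPKM in KO LPS, all below the 51.0, 48.9 and 48.5 FPKM of KO PBS. In wild type it was at 44.7, 47.6 and 46.2 FPKM with LPS, all above the 44.3, 42.8 and 37.7 FPKM with PBS. The log2 fold change was −0.22 ± 0.09 in the knockout and 0.15 ± 0.09 in wild type, neither called. The difference between them, −0.37 ± 0.13 (SE), did not pass the adjusted threshold (limma, adjusted p = 0.436). Without WT PBS replicate 3, the lowest of its group, the change was 0.08 ± 0.08 in wild type (adjusted p = 0.415), that in the knockout was called at −0.22 ± 0.08 (adjusted p = 0.0293), and the difference was −0.30 ± 0.11 (adjusted p = 0.33). The wild-type result also depended on the scaling. Dlst was called higher there at 0.335 with median-of-ratios scaling (limma, adjusted p = 0.00776) and at 0.285 with upper-quartile scaling (adjusted p = 0.00938). How many of all genes moved in opposite directions in this way was not counted, so 1 of 43 cannot be set against a share. Non-overlap itself was common among all genes. In the knockout 24.6% did not overlap as higher and 41.3% as lower with LPS, and in wild type 27.2% and 38.9%.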

How the results depend on the processing

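No called change of a gene of the set was reversed under any alternative. Of the calls with LPS, 12 of 21 in the knockout and 16 of 26 in wild type held under all 21 alternatives. The number called ranged from 13 to 27 in the knockout and from 20 to 26 in wild type on leaving out 1 library. Among all genes those ranges were 4312 to 5752 and 5342 to 6138. It was 13 of the set in the knockout without the pair of libraries richest in erythroid RNA, and 4413 of all genes. With only the groups compared in the fit, where fewer libraries enter, it was 17 of the set in wild type and 5378 of all genes. Between genotypes no gene of the set was called under any alternative. Among all genes the number called between knockout and wild type under LPS, 0, was 2 with no filter, 3 with only the groups compared and 0 to 29 on leaving out 1 library (29 without KO LPS replicate 2). Under PBS, 11, it was 7 with median-of-ratios scaling, 3 with the replicate block, 0 without the erythroid-rich pair, 0 with only the groups compared and 0 to 39 on leaving out 1 library. For the difference in response, 4, it was 2 with a pseudocount of 0.5, 7 when scaled by median of ratios, 8 when scaled by upper quartile, 1 with no filter, 0 with the replicate block, 7 without a trended robust prior, 0 without the erythroid-rich pair and 0 to 49 on leaving out 1 library (49 without WT PBS replicate 3). The cause was not tested. With the replicate number as a block, 20 genes of the set were called in the knockout (5077 of all) and 26 in wild type (5991). The numbers share no stated origin: deviations of same-numbered libraries correlated at −0.254 to 0.193 over 18 pairs, 5 above 0.1, and 4 of 12 libraries correlated best with their own number.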
